A study of Gasterosteus aculeatus with 242 samples.

Results

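The genes described here are the 50, of 8549 measured in threespine stickleback brain, whose messenger RNA was most evenly higher after an open-field trial with a predator model than in untested siblings. For each gene the mean log2 level of open-field fish minus that of baseline fish was taken in each of 16 families. Levels were counts per 1000000 counts of the library (CPM), as log2(CPM + 1), for genes with a mean of at least 5 CPM. The members were chosen by these differences, as the 50 genes with the largest positive one-sample t over the 16 families, and are ranked by that t. This difference is called the rise below. As the basis of the choice it is given as a description, without a test. Sex, hemisphere and rearing were not terms of the rule and were tested. Open-field fish held more females, so genes higher in females were favoured by the choice. Genes whose rise differed between rearing groups spread more over families, so they were disfavoured by it.

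The threespine stickleback, Gasterosteus aculeatus, is a small fish whose father alone guards the nest and the fry. A new place and a predator activate neurons and the stress axis of a fish, in which the hypothalamus and the pituitary drive release of cortisol from the interrenal tissue. As background, active neurons first transcribe immediate early genes, many of which encode transcription factors, soon after a stimulus, and genes controlled by those factors and by the cortisol receptor follow later. Genes in the deposited table carry Ensembl identifiers without symbols, and none of the 22456 (0) was found among the 52177 genes of the annotation at hand. No member could therefore be named or given a role, no marker gene of brain cell types could be checked, and no sequence is shown. Members are called by rank, and identifiers are given for a few of them.

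The open-field fish were 61 raised by their wild-caught fathers (father-reared, Day 10) and 60 raised by hand without him (hand-reared, Day 0). Each spent 10 minutes alone in a pool, was then passed by a model sculpin, a predatory fish, and was killed 60 minutes after that. The baseline fish were 57 father-reared and 64 hand-reared full siblings taken from the home tank, killed within 30 minutes of their partner. All were juveniles 6 to 8 months old. The pool, the model and the capture from the pool cannot be told apart. Families were taken from the first number in each fish's code, which gave 8 father-reared and 8 hand-reared families, and shared parents among families were not modelled. RNA came from the left or right part of each brain and was read near the 3′ ends of transcripts (3′ tag sequencing), so a count does not grow with gene length. In such bulk tissue, more cells of a type and more RNA per cell cannot be told apart.

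Libraries held 706544 to 1529047 counts, apart from 1 hand-reared open-field library with 2055 counts, which was left out of all levels and rises. That left 120 open-field fish, 61 father-reared and 59 hand-reared, and all baseline fish. Males were 53 of the open-field and 70 of the baseline fish, and females were 67 of the open-field and 51 of the baseline fish. Right brain sides were 59 of the open-field and 63 of the baseline samples. The median library total was 1019552.5 counts in open-field fish and 999378 in baseline fish.

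The member ranked 1, ENSGACG00000010476, had 36.9 to 135.2 CPM in open-field fish (median 73.9) and 5.74 to 81.1 CPM in baseline fish (median 24.3). Its mean was 77.5 ± 22.5 CPM in open-field fish and 27.8 ± 14.1 CPM in baseline fish (SD over fish). The groups overlapped little: 48 open-field fish lay above every baseline fish, and 1 baseline fish exceeded the open-field median. The open-field sibling was the higher in 98.2% of sibling pairs. Averaged over families its rise was 1.57 on the log2 scale, or 2.98-fold, with family values between 0.98 and 1.99.

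The member ranked 2, ENSGACG00000013468, had 11.2 to 68.7 CPM in open-field fish (median 38.3) and 4.69 to 48.3 CPM in baseline fish (median 16.1). Its mean was 38.5 ± 10.9 CPM in open-field fish and 17.6 ± 7.13 CPM in baseline fish. A single open-field fish lay below the baseline median, and 2 baseline fish exceeded the open-field median. Its rise was 1.15 (2.22-fold) and 95.6% of pairs went the same way.

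Rank follows the evenness of the rise over families as well as its size. The member ranked 3 shows this: it averaged 59.5 ± 10.3 CPM in open-field fish and 46.9 ± 8.45 CPM in baseline fish, a rise of 0.34 (1.27-fold) that stayed between 0.19 and 0.57 in all 16 families. The member ranked 13 is the opposite case, with 58.3 ± 27.8 CPM in open-field fish and 31.2 ± 24.8 CPM in baseline fish. Its rise was 1.11, and the family values ran from 0.42 to 2.01. Its groups overlapped widely, with 21 baseline fish above the median of open-field fish.

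**Figure D1:**
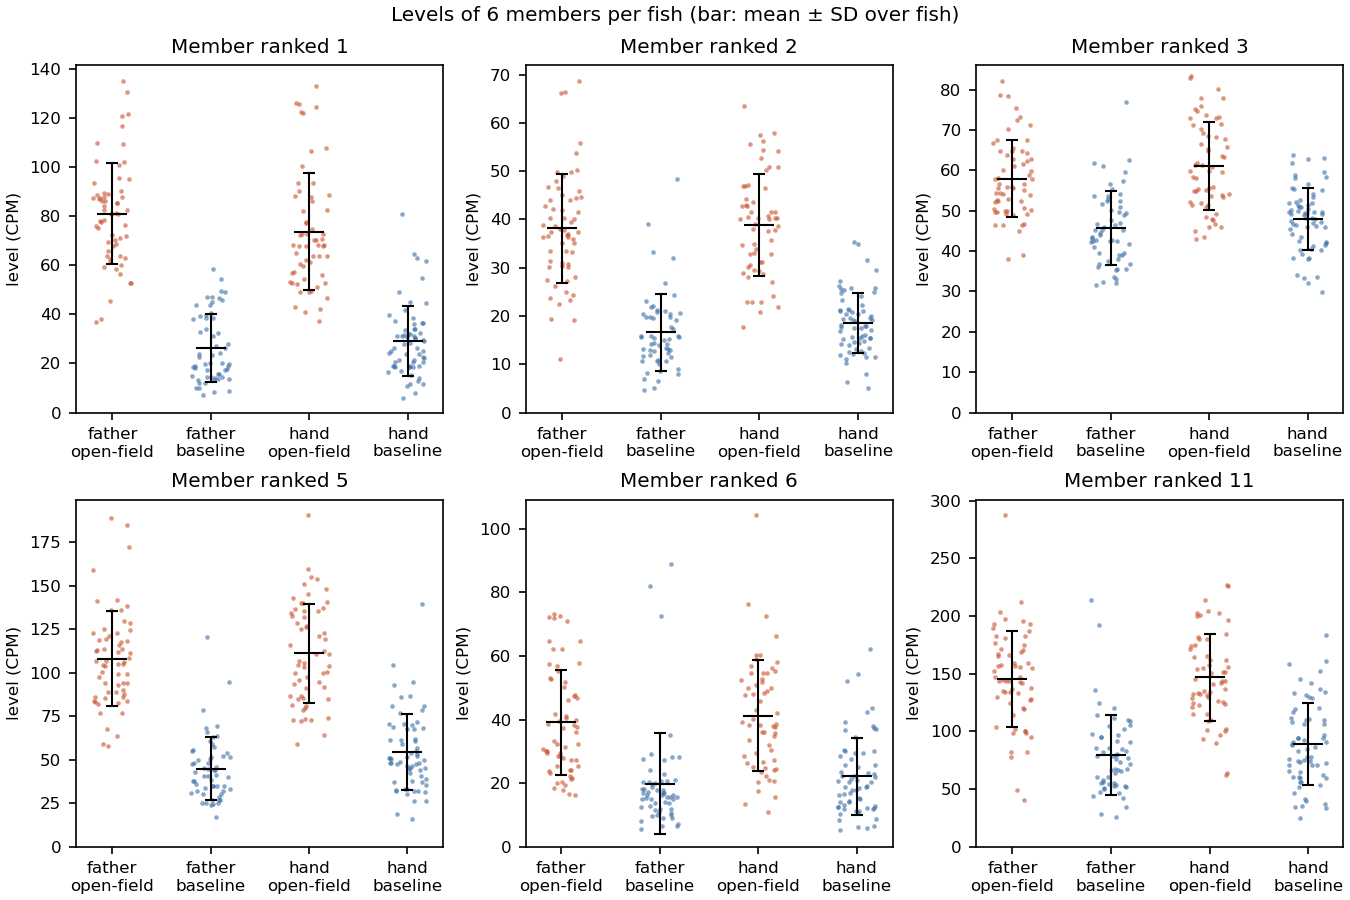
Level in CPM (vertical axis) of the members ranked 1, 2, 3, 5, 6 and 11 in each fish (points), split by rearing and exposure, with the mean and SD over fish as black bars. Open-field fish lie above baseline fish on average in every panel, most clearly for rank 1 (means 77.5 and 27.8 CPM over both rearing groups) and least for rank 3 (59.5 and 46.9 CPM).

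The rises of the members ran from 0.050 to 1.57, without a clear border between large and small ones. A rise above 1 on the log2 scale was seen in 6 members, ranks 1, 2, 4, 5, 6 and 13, which are all 6 such genes among the 8549. A rise above 1.5-fold was seen in 14 members, again all 14 such genes. At the other end, 14 members had a rise under 0.2 and 5 a rise under 0.1. The smallest was that of rank 46, the most abundant member, with 2042 ± 263 CPM in open-field fish and 1975 ± 245 CPM in baseline fish, a rise of 0.050.

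For description the members are split at rank 18, a place picked after the values were seen. Members ranked 1 to 18 had a median rise of 0.81 (0.31 to 1.57), positive in all 16 families for each, as it also was for rank 19. Members ranked 19 to 50 had a median rise of 0.25 (0.050 to 0.61). In all, 25 members were positive in all 16 families, 9 in 15, 7 in 14, 8 in 13 and 1 in 12. The median rise over the 50 was 0.31, beside -0.0020 over the 8549 genes, and the median share of pairs with the open-field sibling higher was 70.6% over the members and 50% over all genes. The choice of members fixes the sign of these numbers.

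The threshold cut through closely spaced genes. Just inside it, ranks 49 and 50 had a t of 3.85 and 3.70 with rises of 0.081 and 0.25, and just outside it ranks 51 and 52 had a t of 3.69 and 3.68 with rises of 0.17 and 0.31. Genes with lower levels after the open field were fewer at this size: 16 genes had a t below the negative of the last member's, the lowest being -5.40. A negative difference in all 16 families was found for 1 gene, and a positive one for 25.

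Summed over ranks 1 to 18, the members took 1725 ± 272 CPM in open-field fish (lowest 1100, median 1738, highest 2485) and 1131 ± 240 CPM in baseline fish (lowest 651, median 1080, highest 2109). The groups overlapped at their edges, with 3 baseline fish above the median of open-field fish. Ranks 19 to 50 took 3521 ± 282 CPM in open-field fish and 3280 ± 291 CPM in baseline fish, and there 26 baseline fish exceeded the open-field median. In the edgeR fit over all fish, 36 of the 46 members that could be tested were called higher in open-field fish at an adjusted p under 0.05, beside 0.56% of the 7682 genes tested. The rule used this same contrast, so nothing is read from that count. The 4 members left untested, ranks 22, 41, 44 and 47, averaged 5.50 to 6.49 CPM and did not pass the filter on low counts.

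The rise was then followed family by family. In father-reared families the median over members averaged 0.35 ± 0.056 (SD, n = 8), from 0.29 in family 07 to 0.47 in family 19. In hand-reared families it averaged 0.33 ± 0.10 (n = 8), from 0.21 in family 04 to 0.55 in family 22. Hand-reared families thus held both the lowest and the highest value. Between 42 (family 35) and 50 (family 11) of the 50 members had a positive difference in a family.

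**Figure D2:**
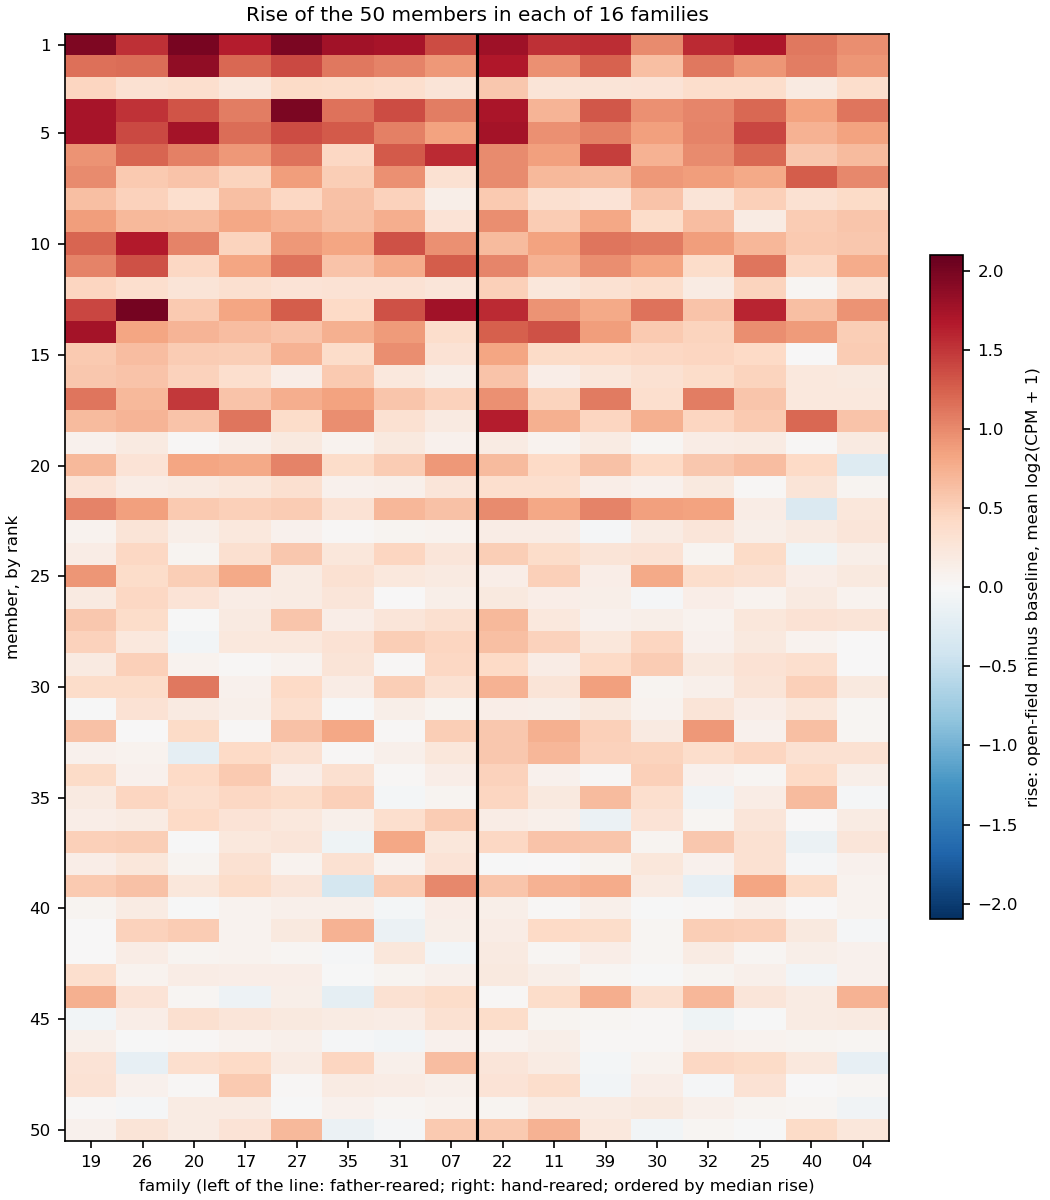
Rise of each of the 50 members (rows, by rank) in each of the 16 families (columns; father-reared left of the black line, hand-reared right, each ordered by median rise), as the open-field minus baseline difference of mean log2(CPM + 1), red above 0 and blue below. Values in the top 19 rows are above 0 in every family, and values below 0 appear from rank 20 down. Values close to 0 are pale on the colour scale, such as 0.00067 for rank 15 in family 40.

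To obtain values that the choice had not used, the list was rebuilt without each family in turn and read in the family left out. Between 45 and 49 of the 50 genes were chosen again. In the families left out, the median rise of the rebuilt list was 0.20 to 0.53 (median over the 16 families 0.31), and 38 to 49 of its 50 genes had a positive difference. The median of all genes in the same families was 0.0012. The share of all genes with a positive difference in each family is not given. Shared parents among families were not modelled, so a family left out may not be separate from the others. The smallest held-out value came from family 04, which is also lowest above.

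Rearing was compared over families, because a family was raised in 1 way. The member ranked 1 had 81.03 ± 20.6 CPM in father-reared open-field fish (lowest 36.9, median 81.02, highest 135.2) and 26.4 ± 13.9 CPM in father-reared baseline fish (7.34, 20.4 and 58.7). In hand-reared fish it had 73.8 ± 23.9 CPM after the open field (37.4, 68.5 and 133.2) and 29.04 ± 14.3 CPM at baseline (5.74, 27.1 and 81.1). Its rise averaged 1.75 ± 0.23 in 8 father-reared families and 1.40 ± 0.32 in 8 hand-reared families (SD), and the families overlapped. In the fit on 32 sums of family and exposure the difference between these rises was 0.28 ± 0.12 (log2, SE), with an unadjusted edgeR p of 0.028 and an adjusted p of 1.00, so it was not called. The member ranked 36, ENSGACG00000004945, had the next smallest p in this direction, with a difference of 0.19 ± 0.088.

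The member ranked 33, ENSGACG00000007949, moved the other way. It had 8.20 ± 3.49 CPM in father-reared open-field fish and 7.59 ± 3.83 CPM in father-reared baseline fish, against 10.4 ± 3.83 CPM in hand-reared open-field fish and 7.58 ± 3.86 CPM in hand-reared baseline fish. At baseline the rearing groups lay together, and after the open field the hand-reared fish were higher. The difference between its rises was -0.31 ± 0.12, with an unadjusted p of 0.018 and an adjusted p of 1.00 in edgeR, again not called. The member ranked 7, ENSGACG00000021353, came next in this direction at -0.14 ± 0.087. Its highest family rise, 1.26, was in hand-reared family 40, where some fish had 0 counts, as described at the end. Leaving out each family in turn gave differences of -0.19 to -0.11. The part of the fish at 0 counts in the difference was not tested.

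Over the members as a list, the rise was larger in father-reared than in hand-reared families for 32 of 50, and for 15 of the first 18. Over all genes 50.7% were larger in father-reared families. All members were read in the same fish and some vary together, as described below, so their signs are not separate observations. The family is the replicate of rearing, with 8 families in each group. The median difference was 0.044 over the members. No member was called for rearing by exposure (0 of 46 in edgeR and 0 in DESeq2; 0% of all genes called), and 2 of 46 had an unadjusted edgeR p under 0.05, where 3.02% of all genes did. Of the 2 in edgeR, 1 had the larger rise in father-reared and 1 in hand-reared families. DESeq2 gave 2 with the larger rise in father-reared families and 0 with the larger rise in hand-reared families. The 2 tools thus did not pick the same 2 members. By DESeq2, 72 of the 7682 genes tested had such a p. The median standard error of a member's difference was 0.096 in edgeR. Because the choice disfavoured genes with unlike rises in the rearing groups, these counts are partly set by it.

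The level itself was also set against rearing. The largest difference over all fish was that of rank 10, ENSGACG00000007282, at 0.74 ± 0.31 (log2 father-reared over hand-reared, SE; unadjusted p 0.027, adjusted p 0.65, edgeR). Without family 31 the difference was 0.37, and leaving out each of the other families in turn gave 0.67 to 0.84. Rank 10 was named here for its size, after its values were seen. Its family means were 14.4 ± 9.84 CPM in father-reared families and 8.82 ± 1.73 CPM in hand-reared families (SD, n = 8 each). Father-reared families spread from 7.14 CPM in family 17 to 36.96 CPM in family 31, and hand-reared families from 5.78 to 11.1 CPM, so the groups overlapped.

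By p over all fish, the members ranked 24 (ENSGACG00000005065) and 42 (ENSGACG00000004826) led among those higher in father-reared fish, at 0.26 ± 0.094 and 0.13 ± 0.050. Those ranked 38 (ENSGACG00000007628) and 13 (ENSGACG00000001466) led among those lower, at -0.25 ± 0.089 and -0.34 ± 0.13. None of the 4 was called, their adjusted p lying between 0.54 and 0.59 in edgeR. Rank 38 had 50.2 ± 14.8 CPM in father-reared open-field fish and 44.6 ± 14.5 CPM in father-reared baseline fish, and 57.6 ± 16.7 CPM in hand-reared open-field fish and 55.6 ± 19.6 CPM in hand-reared baseline fish. Its father-reared baseline level was the lowest of the 4 groups, and in baseline fish alone its difference was -0.31 ± 0.088 (adjusted p 0.34, edgeR).

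No member passed the threshold for rearing over all fish, in baseline fish or in open-field fish, by edgeR or by DESeq2. Of the 7682 genes tested, edgeR called 0% in each of the 3 comparisons. DESeq2 called 20 of them over all fish, 26 in baseline fish and 13 in open-field fish. At an unadjusted edgeR p under 0.05 there were 5 of 46 members over all fish (7.15% of all genes), 7 in baseline fish (6.7%) and 5 in open-field fish (6%). DESeq2 gave 5, 7 and 4 members at that level, beside 565, 496 and 440 of the 7682 genes tested. Of the 7 in baseline fish, 5 were lower and 2 higher in father-reared fish.

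Differences between the sexes passed the threshold in 5 members. The member ranked 50, ENSGACG00000007866, had 9.79 ± 3.51 CPM in male open-field fish (lowest 2.73, median 9.76, highest 18.4) and 9.13 ± 3.74 CPM in male baseline fish (1.15, 8.82 and 19.8). In females it had 19.5 ± 5.80 CPM after the open field (11.3, 18.1 and 35.3) and 17.6 ± 4.42 CPM at baseline (5.04, 17.9 and 25.8). Females lay above males in either exposure group, with some overlap. The log2 difference of males over females was -0.95 ± 0.061 (SE; edgeR adjusted p 6.8e-36).

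Females were 67 of the open-field and 51 of the baseline fish. The rise of rank 50 was 0.25 over all fish, 0.070 in males alone, 0.14 in females alone, and 0.12 after the mean sex difference was taken out of the log2 values. With sex taken out in this way, a step added after seeing the data, its rank fell to 69 and 47 of the 50 genes were chosen again, ranks 42, 49 and 50 being lost. The median rise of the members was 0.31 with sex taken out, as before.

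The member ranked 21, ENSGACG00000006701, was also lower in males, at -0.31 ± 0.025 (adjusted p 1.6e-25, edgeR). It had 99.8 ± 15.2 CPM in male open-field fish and 91.3 ± 14.4 CPM in male baseline fish, against 127.4 ± 16.2 CPM in female open-field fish and 112.5 ± 15.4 CPM in female baseline fish. Its rise was 0.15 in males and 0.16 in females, beside 0.20 over all fish. Members ranked 18, 30 and 46 were lower in males by smaller amounts, at -0.27, -0.21 and -0.055, with adjusted p of 0.0074, 0.040 and 0.042.

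In total 5 of the 46 tested members were called for sex, all lower in males, where 5.15% of all genes were called lower in males and 13.7% were called in either direction. DESeq2 also called 5, beside 1027 of the 7682 genes tested in either direction. The number and its direction are partly set by the choice, since open-field fish held more females, and nothing is read from either. In the list of 50 genes chosen with sex taken out of the log2 values, also 46 tested, 6 were called, 4 lower and 2 higher in males, and 4 of the 6 were members. The members with the smallest p among those higher in males were rank 10, at 0.26 ± 0.11 (adjusted p 0.097), and rank 38, at 0.11 ± 0.055 (adjusted p 0.20), neither of which passed. With the sibling pair as the block in place of the family, 3 members were called, ranks 21, 46 and 50. Each plate alone, as inferred here from the leading digit of library names, gave 3, 2 and 3 calls. The shares of all genes called in these other fits are not given, so nothing is read from their counts.

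**Figure D3:**
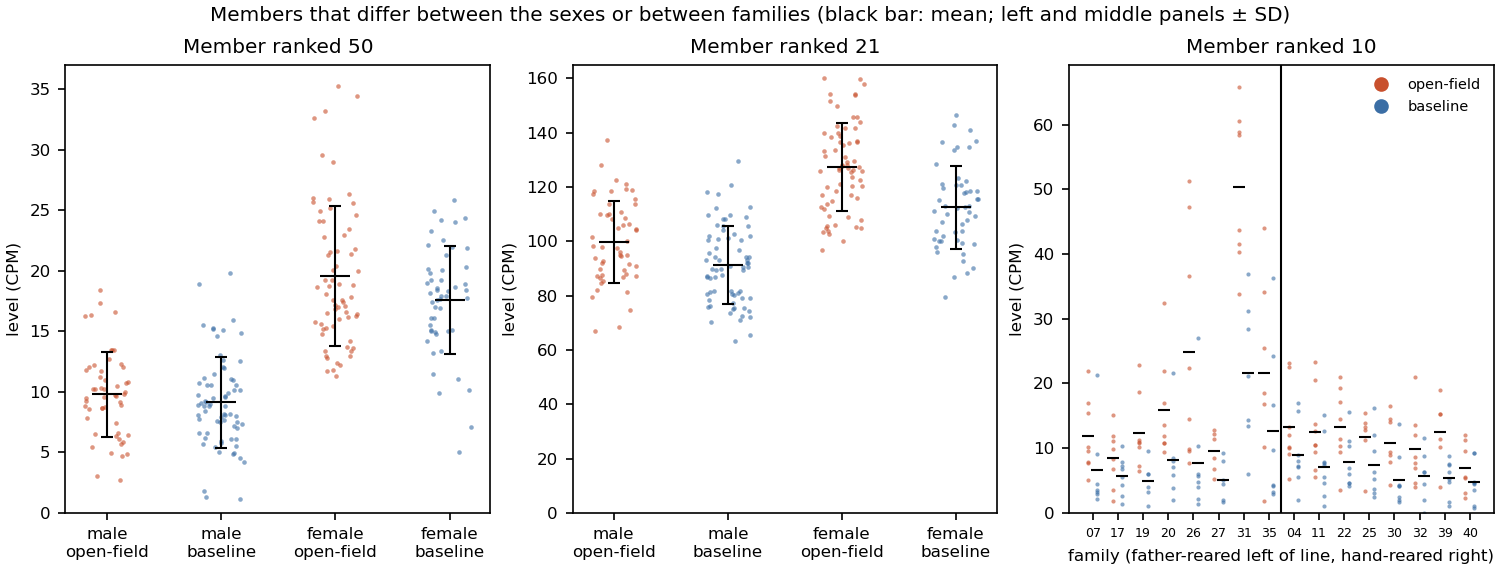
Level in CPM of the members ranked 50 and 21 by sex and exposure (left and middle panels; points are fish, bars the mean and SD) and of rank 10 in each family (right panel; open-field fish left of baseline fish within a family, bars the mean, father-reared families left of the line). Males are below females for rank 50 in both exposure groups (9.79 and 19.5 CPM after the open field), and family 31 stands highest for rank 10.

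All 50 members had a positive rise in males and in females, beside 56.1% of all genes in males and 44.9% in females. The choice used these same fish, so these signs are largely set by it. In smaller groups a few members lacked a positive rise. In father-reared males 46 were positive, and 49 were in each of father-reared females, hand-reared males and hand-reared females. On plate 3 alone 49 were positive (lowest -0.095). The median rise of the members was 0.32 in males and 0.38 in females. Of the 50 rises 19 were larger in males, whereas 57.5% of all genes were. These rises weight all families alike, though some families held very few fish of a sex in an exposure group. In the fits, 38 of the 46 members had a smaller rise in males, beside 51.02% of all genes, and the median difference was -0.089, beside -0.0022. None of the 46 was called for sex by exposure by edgeR or DESeq2, and edgeR called 0% of all genes. At an unadjusted edgeR p under 0.05 there were 7 of 46 members (15.2%), where 5.04% of all genes had such a p. All 7 had the smaller rise in males. DESeq2 gave 6, beside 399 of the 7682 genes tested. All members were read in the same fish and some vary together, as described below, so their signs are not separate observations. The pattern was not the same on each plate, with 28 of 46 members showing the larger rise in males on plate 1, and 10 of 46 on plate 2 and on plate 3.

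The member ranked 45, ENSGACG00000013291, had the smallest p. It had 37.4 ± 8.39 CPM in male open-field fish and 36.98 ± 7.93 CPM in male baseline fish, against 43.1 ± 9.53 CPM in female open-field fish and 35.3 ± 6.33 CPM in female baseline fish. The rise in the fit was 0.023 ± 0.050 in males and 0.26 ± 0.051 in females (SE). Their difference was -0.24 ± 0.073 (unadjusted p 0.0012, adjusted p 0.74, edgeR), not called. The member ranked 30, ENSGACG00000011316, followed at -0.40 ± 0.15 (adjusted p 0.93). On the other side, ranks 34 (ENSGACG00000010627) and 18 (ENSGACG00000000450) had differences of 0.20 ± 0.11 and 0.13 ± 0.16.

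The side of the brain was tested in the same way. None of the 46 members was called between right and left brain sides by edgeR or DESeq2, where edgeR called 0.156% of all genes. At an unadjusted p under 0.05 DESeq2 gave 3 of 46, beside 667 of the 7682 genes tested. By edgeR 2 of 46 had such a p, where 8.6% of all genes did. These 2 were ranks 38 and 28 (ENSGACG00000000614), lower on the right by -0.15 ± 0.053 and -0.094 ± 0.046 (log2 right over left, SE). The smallest p among members higher on the right were those of ranks 50 and 36, at 0.099 ± 0.059 and 0.095 ± 0.056.

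The rise was positive for all 50 members on either side, beside 47.1% of all genes on right sides and 50.8% on left sides. The choice used these same fish, so these signs are largely set by it. The median rise of the members was 0.32 on right sides and 0.38 on left sides. The larger rise was on the right in 14 of 50 members (3 of the first 18), beside 48.02% of all genes. In the fits, 36 of 46 members had the smaller rise on the right, beside 50.7% of all genes. As for sex, the signs of the members are not separate observations, since all were read in the same fish and some vary together. No member was called for hemisphere by exposure by either tool (0% of all genes in edgeR). At an unadjusted edgeR p under 0.05 there were 3 of 46 (6.52%), where 3.81% of all genes had such a p. DESeq2 gave 4, beside 294 of the 7682 genes tested. On plate 1 alone 22 of 46 members had the smaller rise on the right, on plate 2 alone 32 and on plate 3 alone 33.

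The member ranked 39, ENSGACG00000003697, had 17.95 ± 11.2 CPM in right sides of open-field fish and 19.4 ± 21.2 CPM in right sides of baseline fish, against 26.3 ± 17.7 CPM in left sides of open-field fish and 17.1 ± 12.3 CPM in left sides of baseline fish. Its open-field mean CPM exceeded its baseline mean on the left side and not on the right. Right sides of both exposure groups together had a median of 13.9 CPM and a highest value of 107.9 CPM. In the fit its rise was 0.0084 ± 0.15 on the right and 0.67 ± 0.15 on the left (SE). The difference between the rises was -0.66 ± 0.22 (unadjusted p 0.0027, adjusted p 1.00, edgeR), not called. The member ranked 14, ENSGACG00000010820, had 10.8 ± 4.92 CPM in right sides of open-field fish and 6.49 ± 2.78 CPM in right sides of baseline fish, against 11.6 ± 4.27 CPM in left sides of open-field fish and 5.13 ± 2.47 CPM in left sides of baseline fish, a difference between rises of -0.41 ± 0.16. In the opposite direction, ranks 42 and 3 (ENSGACG00000018465) had differences of 0.062 ± 0.061 and 0.056 ± 0.065. Each fish gave 1 side, so sides were compared between fish and not within a brain.

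**Figure D4:**
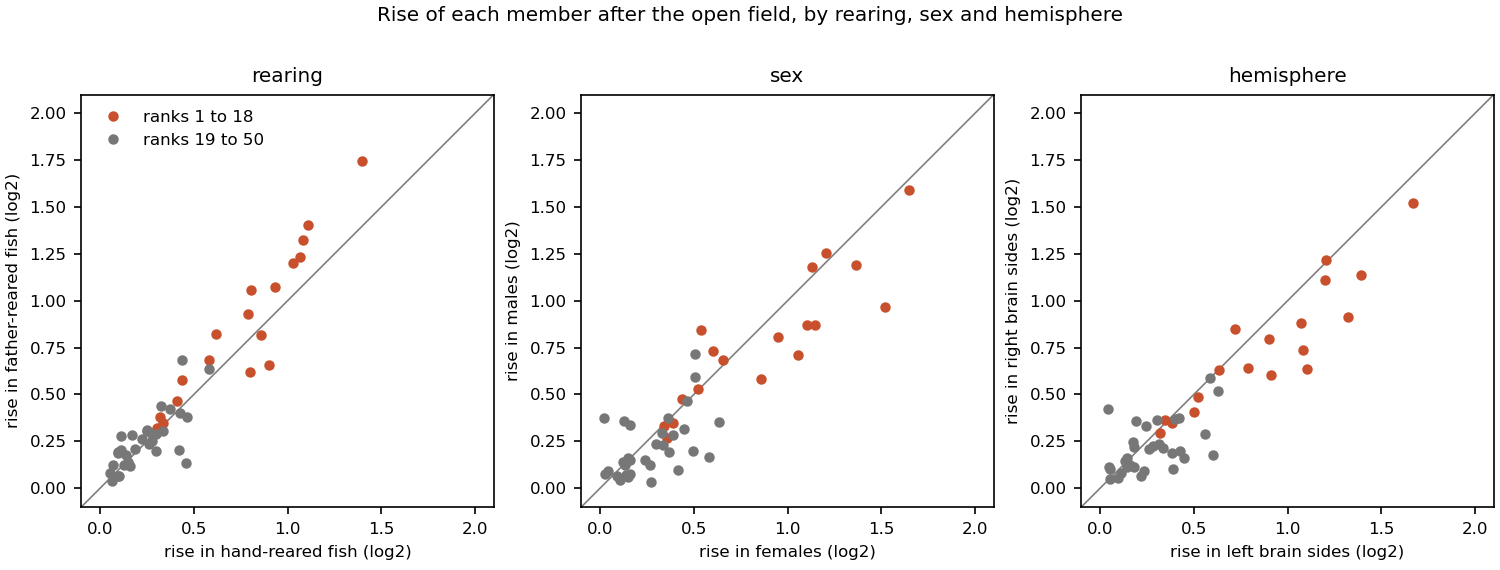
Rise of each member (log2) in father-reared against hand-reared families, in males against females, and on right against left brain sides, with ranks 1 to 18 in red, ranks 19 to 50 in grey and a line where both are equal. Most red points lie above the line for rearing (15 of 18) and below it for hemisphere (3 of 18 above), and for sex 7 of 18 lie above it. All members were read in the same fish and some vary together, so the points are not separate observations.

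Members also varied together among fish of the same exposure, a property the rule did not use directly. For each exposure group, family, sex, hemisphere and plate were taken out of the log2 levels and Pearson's correlation was computed between members over the fish of that group. These fish share plates and families, and the values are given as a description. Among ranks 1 to 18 the median r was 0.23 in open-field fish (-0.15 to 0.64) and 0.21 in baseline fish (-0.24 to 0.74). Some pairs of these members thus had a negative r. Over all pairs of the 8549 genes it was 0.0089 in open-field fish and 0.010 in baseline fish, and 5% of these pairs exceeded 0.21 in either group. Among ranks 19 to 50 the median was 0.038 in open-field fish and 0.047 in baseline fish.

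Of all pairs of members, 27 had an r above 0.4 in both exposure groups, and 18 of these lay within 2 groupings around ranks 1 and 11. The groupings hold the members with such an r to rank 1 or to rank 11. The 18 therefore include the pairs that define the groupings, and nothing is read from that count. The share of all gene pairs above 0.4 in both groups is not given. Whether 27 pairs of members is many can therefore not be told, and nothing is read from that count either. The member ranked 1 went with ranks 2, 4, 5 and 16, each with r above 0.4 in both. Its closest partner was rank 5, with r of 0.60 in open-field fish (Spearman's rho 0.56) and 0.71 in baseline fish (rho 0.71). Without the 2 fish farthest from the median of rank 1, r was 0.57 in open-field fish and 0.69 in baseline fish. Of the 8549 genes, rank 5 alone exceeded r = 0.5 with rank 1 in both exposure groups.

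The member ranked 11 went with ranks 4, 6, 12, 13, 28 and 48 in the same way. Its r with rank 6 was 0.64 in open-field fish (rho 0.65) and 0.74 in baseline fish (rho 0.76), and with rank 13 it was 0.57 in open-field fish (rho 0.55) and 0.74 in baseline fish (rho 0.74). Ranks 6 and 13 are the only genes of the 8549 above 0.5 with rank 11 in both groups. The groupings were not separate. Rank 4 belonged to both, rank 12 had an r with rank 5 of 0.41 in open-field fish and 0.44 in baseline fish, and ranks 1 and 11 themselves had an r of 0.35 in open-field fish and 0.21 in baseline fish. The weakest link named here was between ranks 1 and 13, with r of 0.12 in open-field fish and -0.038 in baseline fish.

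The other 8 pairs reached beyond these groupings. Rank 10 went with rank 24, with r of 0.56 in open-field fish and 0.50 in baseline fish. Rank 12 went with rank 38 at 0.53 in open-field fish and 0.54 in baseline fish, higher in open-field fish than its 0.41 with rank 11. Rank 13 went with rank 33 at 0.54 in open-field fish and 0.50 in baseline fish, and with rank 39 at 0.50 in open-field fish and 0.67 in baseline fish. The remaining 4 pairs were those of rank 24 with ranks 6 and 13, of rank 13 with rank 38 and of rank 33 with rank 39. All of these pairs were picked after their values were seen.

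**Figure D5:**
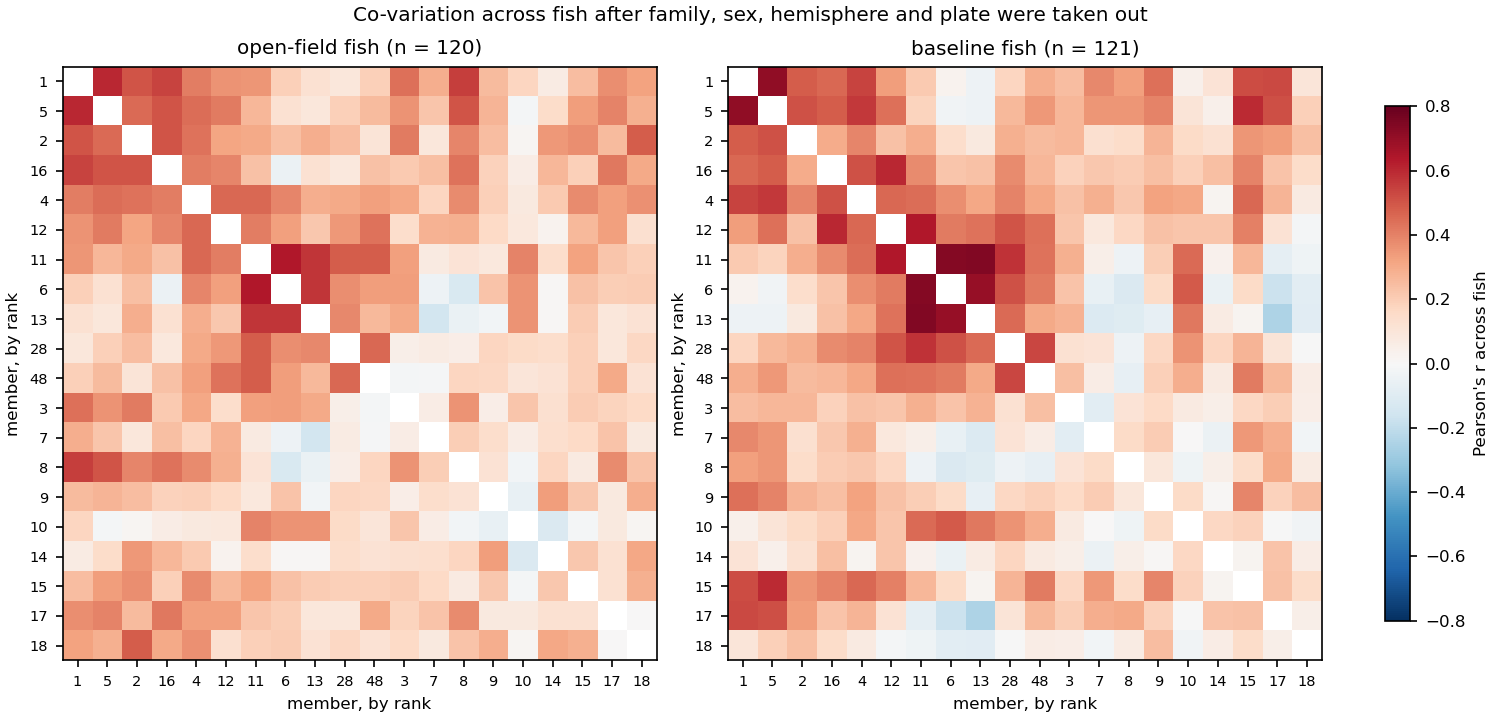
Pearson's r across fish between ranks 1 to 18, 28 and 48 (rows and columns, the members of both groupings first) in open-field fish (left panel) and baseline fish (right panel), red above 0 and blue below, after family, sex, hemisphere and plate were taken out. Ranks 1, 5, 2 and 16 form a red block at the top left, and ranks 11, 6 and 13 a second one, with r near 0 between rank 1 and rank 13 in both panels.

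The spread among fish of a group was also compared. The SD of the log2 levels left after the same terms were taken out had a median over the members of 0.37 in open-field fish and 0.45 in baseline fish, while over all genes it was 0.33 in both. The scale is log2(CPM + 1), on which counting noise is larger at lower levels, and the part of this in the difference was not tested. The share of a member's spread among fish of the same exposure that lay between family means had a median of 15.3% (3.26% to 39.3%). Over all genes it was 12.6%. Means of a few fish differ by chance alone, and this part was not taken out of the shares. The highest shares were those of ranks 46 (39.3%), 24 (34.5%) and 10 (31.1%).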

How the data were processed

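The authors deposited whole-number counts per Ensembl gene for 242 fish and 6 lanes, in 1452 columns, all of which were matched to a fish by library name. Per the submitters' processing notes FastQC 0.11.8, STAR 2.2.3a and HTSeq 0.9.1 were used. Genome build, annotation, strand setting and duplicate removal were not given in the sources used here, so counts of overlapping or near-identical genes are uncertain. Lanes were summed, and CPM computed here are counts per 1000000 library counts. Upper limits given for 0 counts cover counting error only, while SDs and SEs include the spread between fish or families.

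Fits used edgeR 4.0.16 in R 4.3.3 (quasi-likelihood F-test, TMM scaling, filterByExpr with a minimum count of 10, Benjamini-Hochberg adjustment, calls under 0.05), over all 242 fish with family as block and plate, exposure, sex and hemisphere as terms. Plate was inferred here from the leading digit of a library name, a reading that was not checked. Rearing was fitted on counts summed per family, and rearing by exposure on 32 sums with family as block. DESeq2 1.42.0 was an alternative. The fits were run on simulated counts, in which fish were drawn independently, without differences between families or plates. Such counts cannot check how the rearing fits deal with spread between families. SE is the log2 fold change over the square root of F.

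The members, the lists and the comparisons were chosen with earlier results of these data known, and family differences with a small spread were favoured by the choice. Identifiers are printed for ranks 1 and 2 and, per comparison, for up to 2 members with the smallest p in each direction. Lists of marker genes and pathways need symbols and could not be used. Pairing of open-field fish with full siblings comes from the labels. In the counts, the residuals of paired siblings had a median correlation over genes of -0.063, and those of other siblings of opposite exposure -0.071 (795 pairs). No libraries were copies, the lowest chi-square per degree of freedom between libraries of a group being 2.35.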

Additional observations from a re-analysis of the deposited data

Results flagged for a closer look

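In 46 sets of 8 family values, a value that stands apart from the others was looked for. The sets were the rises of ranks 1 to 18, the levels of ranks 7 and 10 and the median rise, each by rearing group. In 4 sets a value stood apart. Chance gives about 2.3 at 1 in 20 for independent sets chosen in advance. These sets share fish and members, and rank 10 was named after its values were seen. The rises were also the values used by the choice, which favoured a small spread over families. The chance number therefore does not hold for them, and nothing is read from the count. The levels of rank 10 that stood apart were of the same family in open-field and in baseline fish. The rise of rank 9 was 0.29 in family 07, below the 0.63 of the next lowest father-reared family. The rise of rank 14 was 1.75 in family 19, above the 0.89 of the next highest father-reared family. The level of rank 10 in family 31 was 50.4 CPM in open-field fish and 21.6 CPM in baseline fish. The next highest father-reared families had 24.9 CPM in open-field fish and 12.7 CPM in baseline fish.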

How the results depend on the processing

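Of 511 alternative values computed, 5 changed sign, all of single members not called, and all on 1 plate. On plate 1 alone the sex difference of rank 10 was -0.033, the sex by exposure difference of rank 18 was -0.094 and the hemisphere by exposure difference of rank 42 was -0.071. On plate 2 alone the hemisphere difference of rank 36 was -0.013, and on plate 3 alone the sex by exposure difference of rank 34 was -0.012. Rank 10 was called higher in males on plate 3 alone, at 0.86. The cause was not tested. The count of members called for sex, 5, became 3 with the sibling pair as a block, 3 with no filter on low counts, and 3, 2 and 3 on plates 1, 2 and 3 alone. The 36 exposure calls among members, on the contrast the rule used, became 21, 19 and 21 on plates 1, 2 and 3 alone. Each of these fits held fewer fish. The shares of all genes called in these other fits are not given, so nothing is read from these counts of calls. The sibling-pair block moved no other count by over 1.5 times, and it could not be fitted for hemisphere because paired siblings gave the same brain side. Leaving out each family in turn gave 0 to 0 members called for each of the 4 rearing comparisons and 45 to 49 members chosen again, and the rearing difference of rank 10 was 0.37 to 0.84, lowest without family 31. With the list chosen after sex was taken out, added after seeing the data, 6 genes were called for sex. At about 1000000 counts per library, members under 7 CPM rest on few counts per fish.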

Other observations

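The member ranked 7 was undetected in 3 fish, all of family 40, which had 15 fish. These were 1 open-field female and 2 baseline males with 0 counts, which allows up to 3.19 CPM in the open-field fish and up to 3.04 and 2.77 CPM in the baseline fish. Another baseline male of the family had 2 counts, or 2.38 CPM. The other 11 fish of family 40 had 21.6 to 65.6 CPM (median 35.6). No fish of another family was at 0, the lowest having 5.30 CPM, and the libraries came from plates 1 and 2.

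The member ranked 47 had 42.3 CPM in 1 open-field male of family 20 and 44.3 CPM in 1 baseline male of family 39. The next highest fish, of either exposure, had 23.3 CPM, and the median was 6.03 CPM in open-field fish and 5.03 CPM in baseline fish.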
